A study of Mus musculus with 25 samples.

Results

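The genes described here are 34 genes of cell division, taken by symbol and matched to their Ensembl identifiers among the 47729 genes of the count table. They were read in 25 RNA-seq libraries of brain hemispheres from male C57BL/6 mice, with 5 libraries at each of 2, 9, 15, 24 and 30 months of age. No treatment or genetic change is given for any age, so the ages differ only in months as far as the labels say. The comparison asks how transcripts of dividing cells change in the brain between young adulthood and old age. The labels do not say in words that each library is a separate animal, so p values measure the spread between libraries. The hemispheres mix all brain cells, and in such bulk RNA fewer cells of a type and less RNA per cell cannot be told apart.

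Most cells of the adult brain do not divide. Neural stem cells and their progeny in the hippocampus and along the lateral ventricles, and oligodendrocyte precursors throughout the tissue, are the known exceptions. A cell that enters the cycle first loads the Mcm helicase on its replication origins, then makes nucleotides and copies its DNA around the sliding clamp Pcna. It later builds a spindle, condenses its chromosomes and separates them. Genes of the first steps are largely driven by E2F factors, while genes of G2 and mitosis are kept off in resting cells by the DREAM complex, which acts through a promoter element called CHR, often together with CCAAT boxes bound by NF-Y.

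These elements can be read in the promoters of the members. The promoter table of RefSeq (GRCm38.p6) held 28 of the 34 members, with 31 promoters, and has no entry for Aurkb, Ccna2, Mcm4, Pbk, Smc4 and Tpx2. The 250 bases before each start were searched on both strands for CHR as TTTGAA or TTCGAA, for the CCAAT box as CCAAT, and for E2F as TTTCCCGC, TTTGGCGC, TTTCGCGC or TTTGCCGC. TTCGAA reads the same on both strands and was counted 1 time per position, and no member promoter had matches of different motifs that overlapped. Shown are the 4 members with the smallest p for the age trend that the table holds, because the results below turn on them: 3 that fell with age and Melk, which rose. Each is written 5′ to 3′ on the gene's own strand and ends at the base before the start, with the matches in capitals.
Top2a (chr11:99024190-99024439, minus strand): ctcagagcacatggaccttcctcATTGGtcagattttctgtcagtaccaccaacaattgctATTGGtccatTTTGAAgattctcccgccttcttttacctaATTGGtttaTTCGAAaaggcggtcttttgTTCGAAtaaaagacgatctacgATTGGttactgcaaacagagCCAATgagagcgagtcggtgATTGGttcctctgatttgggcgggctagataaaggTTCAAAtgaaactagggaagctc
Cenpf (chr1:189688087-189688336, minus strand): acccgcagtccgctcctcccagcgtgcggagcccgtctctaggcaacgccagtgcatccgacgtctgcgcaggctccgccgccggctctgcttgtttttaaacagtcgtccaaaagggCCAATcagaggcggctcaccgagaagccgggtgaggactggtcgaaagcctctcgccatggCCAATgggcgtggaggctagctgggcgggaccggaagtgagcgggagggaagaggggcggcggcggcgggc
Mki67 (chr7:135716380-135716629, minus strand): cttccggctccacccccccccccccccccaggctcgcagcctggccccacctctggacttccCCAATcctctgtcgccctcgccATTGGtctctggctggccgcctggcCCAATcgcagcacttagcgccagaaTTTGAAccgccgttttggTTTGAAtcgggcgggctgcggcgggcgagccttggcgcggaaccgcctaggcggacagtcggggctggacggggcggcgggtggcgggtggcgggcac
Melk (chr4:44300667-44300916, plus strand): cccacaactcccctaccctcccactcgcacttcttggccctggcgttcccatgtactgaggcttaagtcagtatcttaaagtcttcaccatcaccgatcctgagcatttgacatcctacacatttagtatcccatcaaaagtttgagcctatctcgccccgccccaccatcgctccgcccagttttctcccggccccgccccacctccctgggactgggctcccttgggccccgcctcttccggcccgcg
The Top2a stretch held 4 CHR and 6 CCAAT matches, the Mki67 stretch 2 and 3, and the Cenpf stretch 0 and 2. The Melk stretch held no match to any of these letters. A CCAAT match lay in 26 of the 31 member promoters, or 83.9%, against 33.8% of all 32851 promoters of the table. A CHR match lay in 12 of 31, or 38.7%, against 17.1%, and every one of these 12 also held a CCAAT match, a combination found in 6.02% of all promoters. Among the 21 promoters of chromosome and mitosis members 10 had a CHR match, and among the 10 promoters of replication members 2 did. E2F matches were in 3 of the 10 replication promoters (Mcm5, Mcm6 and Mcm7) and in 1 of the 21 others, that of Cdk1, against 1.86% of all promoters. These are matches of letters, which were not tested as binding sites.

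Some libraries stood apart. The library of 2 months replicate 4 carried transcripts of blood-forming marrow. The 10 granulocyte and marrow genes listed summed to 55.5 CPM there, where CPM are counts scaled to a common sequencing depth after TMM, against 1.84 to 13.0 CPM in the other 24 libraries, and 9 of the 10 were at their highest. Among the 10 red cell precursor genes 4 were at their highest there. Of the 34 members, 22 had their highest level of the 2 month libraries in replicate 4. The share over all genes was not counted, and the part of marrow cells in these levels was not tested. The sum of 10 genes of meninges and fibroblasts was also highest there, at 356 CPM against 202 to 300 CPM in the other 24 libraries. Counts of calls and the values of leading members are therefore also given without that library, and counts with the marrow sum as a covariate. At 30 months replicates 2 to 5 had transcripts of high GC content raised over those of low GC content by 1.07 to 1.94 on the log2 scale, against 0.12 in replicate 1 and -0.26 to 0.14 in the 20 younger libraries. The comparisons of 2 to 24 months were therefore fitted on those 20 libraries. Liver transcripts, 12 listed genes led by Alb, varied from 1.6 to 264 summed CPM and were highest on average at 24 months (59.9 to 264). Library totals were 17800113 to 31261121 counts. Markers of resident brain cells were found at each age, such as Cx3cr1 of microglia and Olig1 of the oligodendrocyte lineage with means of 46.6 and 88.0 CPM at 2 months.

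The members were scarce. All 34 together summed to 2662 to 4854 counts per library from 2 to 24 months, and 23 of them had a mean of 1 CPM or more over the 25 libraries. Those with a mean under 0.5 CPM were Cdk1 (0.352), Pbk (0.269), Ube2c (0.224), Bub1 (0.214), Aurkb (0.184) and Ccnb1 (0.0962). Per kilobase of exon, the highest mean levels at 2 months were those of Pcna (6.45 CPM per kb), Mcm4 (4.19), Smc2 (2.91) and Mcm6 (2.52), and the lowest were Bub1 (0.104) and Ccnb1 (0.0452). By summed CPM, not scaled to length, the genes of replication and of chromosome structure made up most of the signal. Aurkb and Ccnb1 were under the filter of a mean of 5 counts per library and were not tested. Bub1, with a mean of 5.55 counts, passed that filter in the 20 younger libraries through its level at 2 months and fell under it over all 25. Ube2c, Ccna2 and Prc1 share over 10% of their exonic bases with a gene on the opposite strand (Tnnc2, Exosc9 and Rccd1), and whether the counting used strand is not given in the sources used here.

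Summed over their members, transcripts of mitosis lay lower at each later age than at 2 months, while those of replication lay lower at 9 months and among the 2 month values at 24 months. The summed level of the 24 chromosome and mitosis members was 66.0 ± 7.31 CPM (SD, n = 5) at 2 months, 51.4 ± 2.12 at 9 months, 55.2 ± 2.12 at 15 months and 50.5 ± 1.82 at 24 months. Its lowest library at 2 months stood at 59.0 CPM and the highest of the 15 libraries of 9 to 24 months at 57.6, so the groups did not overlap. The summed level of the 10 replication members was 93.3 ± 3.74 CPM at 2 months, 85.5 ± 2.13 at 9 months, 90.9 ± 1.94 at 15 months and 95.8 ± 2.95 at 24 months. Here the 9 month libraries (83.1 to 87.8) lay under all those of 2 months (90.0 to 98.6), and those of 24 months (90.8 to 97.8) lay among them. Without 2 months replicate 4 the 2 month sums were 63.2 ± 4.41 CPM (n = 4) for mitosis and 92.0 ± 2.58 CPM for replication. No test was made on these sums, since the members were chosen with results of these data known.

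**Figure D1:**
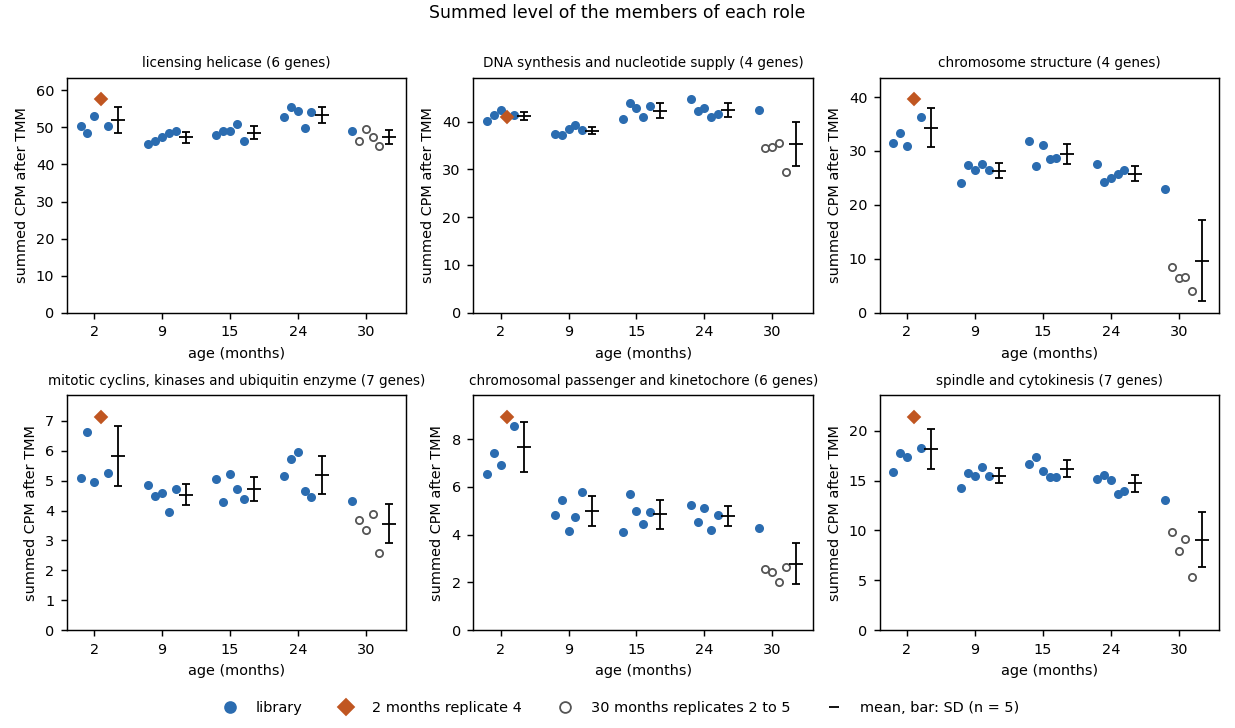
Summed CPM after TMM of the members of each role (y axes) against age in months (x axes), 1 point per library, with the mean and SD of 5 libraries as bars. The passenger and kinetochore genes lie at 6.55 to 8.94 CPM at 2 months and at 4.11 to 5.79 CPM from 9 to 24 months, and the open points of 30 months lie lowest in 5 of the 6 roles.

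Single genes were tested with edgeR's quasi-likelihood test, two-sided, with p adjusted by Benjamini and Hochberg over all 18655 genes tested in the 20 libraries, and called at 0.05. Of the 32 members tested, 13 were lower at 9 than at 2 months and 0 higher, where 6.41% of all genes tested were lower and 7.35% higher. At 15 months 10 were lower and 0 higher than at 2 months, against 6.52% and 5.35% of all genes. At 24 months 10 were lower and 1 (Melk) higher, against 11.1% and 10.1%. The median log2 fold change of the 32 was -0.27 at 9 months, -0.14 at 15 months and -0.30 at 24 months, with -0.01, 0.00 and 0.00 over all genes tested. At 9 and 15 months 0 members were higher at an unadjusted p under 0.05 as well, and DESeq2 and limma-voom also called 0 higher. These comparisons share the 2 month libraries, so they are not independent of each other. Bub1, which passed the filter only through its 2 month level, is among the lower members at 9 and 24 months, and without it 12 and 9 of 31 were lower. Without 2 months replicate 4 the calls were 11, 6 and 8, and with the marrow sum as covariate 12, 6 and 10. Of all 18703 genes the first fit called 979, 946 and 1738 lower and 1214, 821 and 1625 higher. Of 18655 the second called 1084, 926 and 1999 lower and 1211, 774 and 1900 higher. The main fit called 1195, 1216 and 2072 lower and 1372, 998 and 1881 higher.

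**Figure D2:**
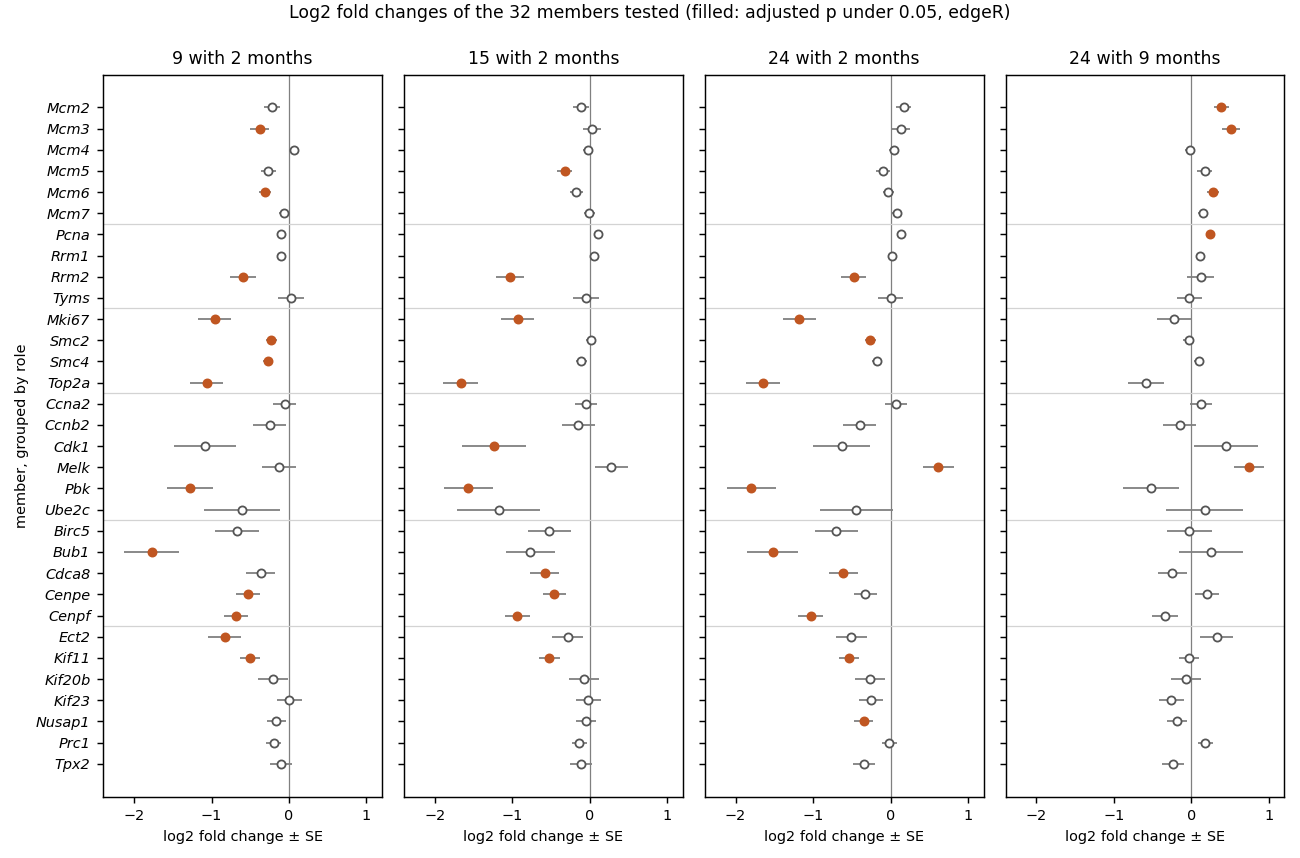
Log2 fold change with its SE (x axes) of the 32 members tested (y axis, grouped by role from the licensing helicase at the top to the spindle at the bottom) in 4 comparisons of ages, each the older with the younger. Filled points pass an adjusted p of 0.05 in edgeR: 13, 10 and 11 members against 2 months, all lower but Melk at 24 months, and 5 members, all higher, at 24 with 9 months.

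Of the 4 genes of chromosome structure, all 4 were called lower at 9 months, where 6.41% of all genes tested were. Top2a, the topoisomerase that untangles DNA before chromosomes part, had 2 month levels of 2.79, 3.01, 3.25, 4.72 and 2.61 CPM. At 9 months it stood at 1.38, 1.97, 1.66, 1.32 and 1.45 CPM, and at 15 months at 1.15, 0.943, 1.3, 0.96 and 0.756 CPM. At 24 months it stood at 1.94, 0.688, 0.896, 0.828 and 0.766 CPM. Every library of 9 to 24 months was lower than every library of 2 months. The log2 fold changes with 2 months were -1.06 ± 0.21 (SE), -1.67 ± 0.22 and -1.65 ± 0.22 at 9, 15 and 24 months, with adjusted p of 0.000974, 1.99e-05 and 4.95e-06 in edgeR. Without 2 months replicate 4 they were -0.91, -1.51 and -1.49, with adjusted p of 0.00325, 4.03e-05 and 1.07e-05.

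Mki67 encodes the Ki-67 protein that coats mitotic chromosomes and is the usual stain for cycling cells. It measured 2.64, 3.62, 2.79, 6.24 and 4.14 CPM at 2 months and 2.11, 2.01, 1.92, 1.98 and 1.78 CPM at 9 months. At 15 months its levels were 2.08, 1.93, 2.2, 1.46 and 2.41 CPM and at 24 months 2.66, 1.29, 1.31, 1.52 and 1.57 CPM. The libraries of 9 and 15 months lay under all of 2 months, and at 24 months only replicate 1, with 2.66, reached into the 2 month range. Its log2 fold changes were -0.96 ± 0.21, -0.93 ± 0.21 and -1.18 ± 0.21 (edgeR adjusted p of 0.00357, 0.00583 and 0.000333). Without 2 months replicate 4, which held the highest value of 6.24, they were -0.73, -0.70 and -0.95, with adjusted p of 0.00621, 0.0111 and 0.000302.

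Smc2 and Smc4 form the core of condensin, which compacts chromosomes, and both were much more abundant than Top2a per kilobase. Smc2 stood at 15, 15.7, 14.1, 16.9 and 17.9 CPM at 2 months, 11.9, 13.1, 13.7, 15.6 and 13.6 CPM at 9 months and 17, 15.1, 17.3, 15.8 and 14.8 CPM at 15 months. At 24 months it stood at 12.5, 12.6, 13.8, 13.1 and 14 CPM. It was lower at 9 and 24 months by 0.23 and 0.26 on the log2 scale (fold changes of -0.23 ± 0.07 and -0.26 ± 0.07, edgeR adjusted p of 0.025 and 0.0058), and at 15 months its levels spanned those of 2 months (0.01 ± 0.07). Its 9 month call was lost when 2 months replicate 4 or 5 or 9 months replicate 1 or 2 was left out (adjusted p of 0.0624 to 0.0984). With the liver sum as covariate its 24 month call was lost (adjusted p = 0.258). Smc4 was called at 9 months alone (-0.27 ± 0.07, edgeR adjusted p = 0.00681).

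**Figure D3:**
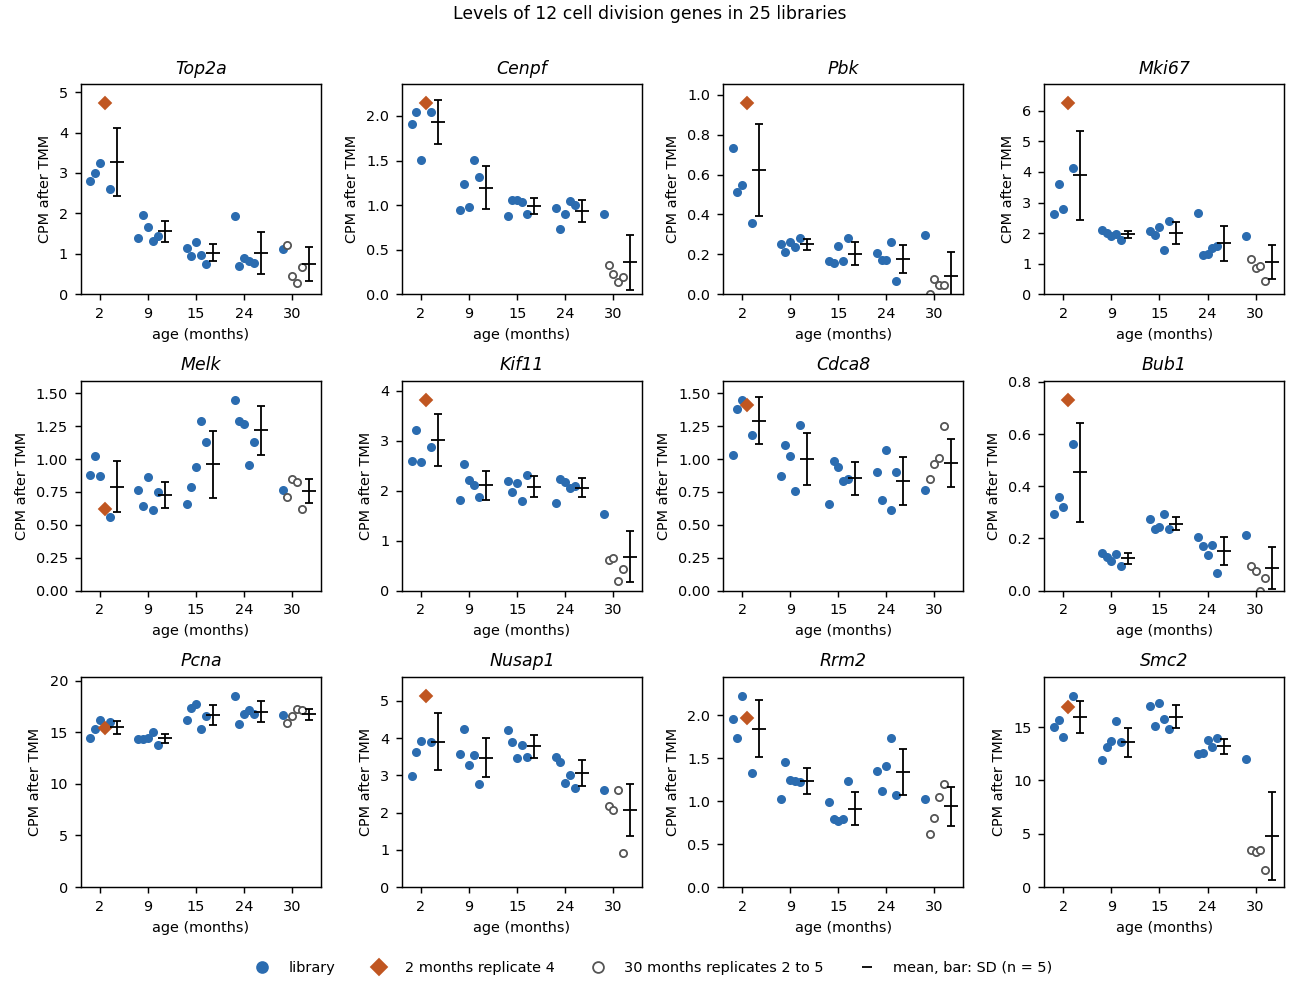
CPM after TMM (y axes, from 0) of the 12 members named with all their values, against age in months (x axes), 1 point per library, with mean and SD of 5 libraries as bars. Top2a, Cenpf and Pbk are highest at 2 months and stay low, Melk is highest at 24 months (0.958 to 1.45 CPM), and the open points of 30 months drop for Smc2 (1.63 to 3.48 CPM) but not for Pcna (15.9 to 17.3 CPM).

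Among the 6 genes of the chromosomal passenger complex and the kinetochore, 5 were tested and their fold changes against 2 months were below 0 at all 3 ages. Of all 18655 genes tested, 9766, 9547 and 9297 were below 0 at 9, 15 and 24 months. The 5 include Bub1, which passed the filter through its 2 month level. Cenpf, a large kinetochore protein made in G2, measured 1.91, 2.04, 1.51, 2.14 and 2.05 CPM at 2 months and 0.945, 1.24, 0.98, 1.51 and 1.31 CPM at 9 months. It measured 0.877, 1.06, 1.06, 1.04 and 0.897 CPM at 15 months and 0.968, 0.731, 0.896, 1.05 and 1 CPM at 24 months. The highest value at 9 months, 1.51, lay just under the lowest at 2 months, and all later libraries were lower still. The log2 fold changes were -0.69 ± 0.16, -0.94 ± 0.16 and -1.03 ± 0.16 (edgeR adjusted p of 0.00344, 0.000284 and 2.6e-05). Without 2 months replicate 4 they were -0.64, -0.90 and -0.99 (0.0104, 0.00115 and 0.000118). Bub1, the kinase of the spindle checkpoint, was near the limit of counting, with 6 to 13 counts per library at 2 months and 2 to 4 at 9 months. Its levels were 0.293, 0.357, 0.321, 0.731 and 0.563 CPM at 2 months, 0.145, 0.129, 0.113, 0.141 and 0.0935 CPM at 9 months, 0.274, 0.236, 0.244, 0.292 and 0.236 CPM at 15 months and 0.207, 0.172, 0.138, 0.174 and 0.0667 CPM at 24 months. No library of 9, 15 or 24 months reached the 2 month range, but the highest of 15 months (0.292) lay just under the lowest of 2 months (0.293). In raw counts Bub1 overlapped between these ages, with 5 to 7 counts at 15 months and 6 to 13 at 2 months. Since it passed the filter through its 2 month level (a mean of 4.27 counts over the 15 later libraries), its filtered fold changes of -1.77, -0.77 and -1.52 are given as a description. In the fit with no filter on low counts they were -1.77, -0.76 and -1.51 (edgeR adjusted p of 0.00209, 0.292 and 0.00445).

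Cdca8, the passenger protein also called borealin, had levels of 1.03, 1.38, 1.45, 1.41 and 1.18 CPM at 2 months and 0.872, 1.11, 1.02, 0.754 and 1.26 CPM at 9 months. Its levels at 15 months were 0.658, 0.983, 0.936, 0.835 and 0.85 CPM and at 24 months 0.898, 0.688, 1.07, 0.61 and 0.9 CPM. Only at 15 months did its libraries all lie under those of 2 months. It was called lower at 15 and 24 months (-0.58 ± 0.19 and -0.61 ± 0.18, edgeR adjusted p of 0.0411 and 0.0169). The first call was lost without any 1 of 8 of the 10 libraries, all but 2 months replicate 1 and 15 months replicate 2 (adjusted p of 0.0508 to 0.113), and the second without 2 months replicate 3 (0.0529). Cenpe, a kinetochore motor, was called lower at 9 and 15 months (-0.53 ± 0.15 and -0.46 ± 0.15, edgeR adjusted p of 0.0171 and 0.046). The first call was lost without 2 months replicate 5 or 9 months replicate 3 or 4 (adjusted p of 0.0553 to 0.0781), and the second without any 1 of 8 of the 10 libraries, all but 2 months replicate 1 and 15 months replicate 5 (0.0524 to 0.164). Birc5, or survivin, did not pass the test at any of these ages (fold changes of -0.67, -0.52 and -0.70), though its 9 and 24 month libraries (0.301 to 0.660 and 0.311 to 0.621 CPM) lay under those of 2 months (0.665 to 1.01 CPM).

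The 7 mitotic cyclins, kinases and the ubiquitin enzyme Ube2c did not move as a block. Pbk, a kinase of mitotic cells, measured 0.734, 0.51, 0.546, 0.956 and 0.358 CPM at 2 months and 0.254, 0.214, 0.264, 0.236 and 0.28 CPM at 9 months. At 15 months it measured 0.165, 0.157, 0.244, 0.167 and 0.283 CPM and at 24 months 0.207, 0.172, 0.172, 0.261 and 0.0667 CPM, from 2 to 6 counts per library. All 15 later libraries lay under all of 2 months. It fell in each comparison (-1.28 ± 0.30, -1.57 ± 0.32 and -1.80 ± 0.32, edgeR adjusted p of 0.00419, 0.00125 and 0.00011), and without 2 months replicate 4 as well (-1.09, -1.39 and -1.62, adjusted p of 0.0185, 0.00625 and 0.000659). Melk, a kinase found in neural progenitors and tumours, went the other way. Its levels were 0.88, 1.02, 0.868, 0.619 and 0.563 CPM at 2 months, 0.763, 0.642, 0.867, 0.613 and 0.748 CPM at 9 months, 0.658, 0.786, 0.936, 1.29 and 1.13 CPM at 15 months and 1.45, 1.29, 1.27, 0.958 and 1.13 CPM at 24 months. At 24 months 4 of 5 libraries were above the highest of 2 months (1.02). The rise was 0.62 ± 0.20 with 2 months (edgeR adjusted p = 0.0252) and 0.74 ± 0.20 with 9 months (0.00541). Without 2 months replicate 4, 2 months replicate 5 or 24 months replicate 1, the adjusted p with 2 months was 0.0637, 0.0798 or 0.0714. Liver transcripts were also highest on average at 24 months, and with their sum as covariate the adjusted p was 0.204 with 2 months and 0.0823 with 9 months. Their part in the rise was not tested further. At 30 months Melk stood at 0.624 to 0.848 CPM, under all libraries of 24 months, with 0.767 CPM in replicate 1. Over all 25 libraries it was lower at 30 than at 24 months (-0.69, edgeR adjusted p = 0.00275), a call lost with a correction for GC content (0.0688).

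Cdk1, the kinase that starts mitosis, was called lower at 15 months alone (-1.24 ± 0.41, edgeR adjusted p = 0.0467). The call rested on 2 months replicate 4 among others (0.206 without it), and without 2 months replicate 2 or 15 months replicates 2, 3 or 5 it was lost too (0.0867 or more). With the marrow sum as covariate the adjusted p was 0.30. Ccna2, Ccnb2 and Ube2c passed no comparison from 2 to 24 months. Ccna2, cyclin A2, had a mean of 2.19 CPM over the 20 libraries, and its fold changes lay between -0.06 and 0.07 against 2 months.

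Of the 7 spindle and cytokinesis genes, 2 were called lower at 9 months, 1 at 15 and 2 at 24 months, and none higher. Of all genes tested 6.41%, 6.52% and 11.1% were lower at these ages. Kif11, the motor that pushes the spindle poles apart, stood at 2.59, 3.21, 2.57, 3.82 and 2.87 CPM at 2 months and 1.82, 2.53, 2.22, 2.12 and 1.87 CPM at 9 months. It stood at 2.19, 1.97, 2.16, 1.79 and 2.31 CPM at 15 months and 1.76, 2.24, 2.17, 2.05 and 2.1 CPM at 24 months. Every later library lay under the lowest of 2 months, 2.57. The log2 fold changes were alike in size, -0.50 ± 0.13, -0.52 ± 0.13 and -0.53 ± 0.13 (edgeR adjusted p of 0.00891, 0.0087 and 0.00313), and without 2 months replicate 4 they were -0.40, -0.43 and -0.44 (0.0405, 0.0372 and 0.0168). With the liver sum as covariate the 24 month call was lost (adjusted p = 0.084). Nusap1, which binds microtubules of the spindle, had levels of 2.98, 3.62, 3.92, 5.12 and 3.89 CPM at 2 months and 3.56, 4.24, 3.28, 3.54 and 2.76 CPM at 9 months. Its levels at 15 months were 4.22, 3.89, 3.46, 3.8 and 3.5 CPM and at 24 months 3.49, 3.35, 2.79, 3.01 and 2.67 CPM. The ages overlapped throughout, and its call at 24 months (-0.35 ± 0.13, edgeR adjusted p = 0.0465) was lost without any 1 of 7 of the 10 libraries, all but 2 months replicate 1 and 24 months replicates 1 and 2 (0.0525 to 0.184). Ect2, which sets up the cleavage furrow, was called lower at 9 months (-0.83 ± 0.21, adjusted p = 0.00716), also without 2 months replicate 4 (-0.77, 0.0206). Kif20b, Kif23, Prc1 and Tpx2 passed none of the comparisons from 2 to 24 months.

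Of the 10 replication members, 3 were called lower at 9 months, 2 at 15 months and 1 at 24 months. Among all genes tested 6.41%, 6.52% and 11.1% were lower at these ages, so the 24 month count was near that share. Rrm2, the regulated subunit of the enzyme that makes deoxynucleotides, was the member called at all 3 ages. It measured 1.96, 1.74, 2.22, 1.97 and 1.33 CPM at 2 months and 1.02, 1.46, 1.24, 1.23 and 1.22 CPM at 9 months. At 15 months its levels were 0.987, 0.786, 0.773, 0.793 and 1.23 CPM and at 24 months 1.35, 1.12, 1.41, 1.74 and 1.07 CPM. Its libraries were lowest at 15 months, where all lay under those of 2 months, and overlapped with 2 months at 9 and 24 months. The log2 fold changes were -0.60 ± 0.17, -1.03 ± 0.18 and -0.48 ± 0.17 (edgeR adjusted p of 0.017, 0.000284 and 0.0372). The call at 9 months was lost without 2 months replicate 3 (0.0704) or 9 months replicate 1 (0.0537). The call at 24 months was lost without any 1 of 6 libraries, 2 months replicates 1, 3 and 4 and 24 months replicates 1, 2 and 5 (0.0588 to 0.13). Rrm1, its partner subunit, was not called at any of these ages (-0.10, 0.06 and 0.01).

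Pcna had levels of 14.5, 15.3, 16.2, 15.4 and 16 CPM at 2 months and 14.4, 14.4, 14.5, 15 and 13.8 CPM at 9 months. Its levels were 16.2, 17.4, 17.8, 15.3 and 16.6 CPM at 15 months and 18.5, 15.8, 16.8, 17.2 and 16.8 CPM at 24 months. Its libraries at 24 months all lay above those at 9 months, where the highest was 15.0, and overlapped with those at 2 months. Against 2 months its fold changes of -0.10, 0.11 and 0.14 did not pass the test. Within the Mcm helicase, Mcm3 and Mcm6 were called lower at 9 months (-0.38 ± 0.12 and -0.31 ± 0.08, edgeR adjusted p of 0.029 and 0.00788) and Mcm5 at 15 months (-0.32 ± 0.10, 0.0292). The Mcm3 call was lost in 6 of 10 omissions of 1 library (2 months replicates 2, 4 and 5, 9 months replicates 2, 3 and 5, adjusted p of 0.0513 to 0.101). The Mcm5 call was lost in 4 (2 months replicates 3 and 4, 15 months replicates 1 and 5, 0.0517 to 0.101). Mcm2, Mcm4 and Mcm7 were not called against 2 months, and none of the 6 was called at 24 months. The products of the helicase genes act as 1 ring. Different subunits passed at different ages, and whether their changes with age differed was not tested.

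From 9 to 24 months, 5 of the 32 members were called higher and 0 lower, where 14.3% of all genes were higher and 14.7% lower, so the share of members called higher (Mcm2, Mcm3, Mcm6, Pcna and Melk) was near that of all genes. Of lower members, 1 (Top2a) had an unadjusted p under 0.05 in edgeR, DESeq2 called 0 and limma-voom 1. The fold changes were 0.39 ± 0.10 for Mcm2, 0.51 ± 0.11 for Mcm3, 0.28 ± 0.08 for Mcm6 and 0.24 ± 0.05 for Pcna (edgeR adjusted p of 0.00429, 0.00116, 0.00677 and 0.000849). With the liver sum as covariate Mcm3 and Pcna were still called, and Mcm2 (adjusted p = 0.062), Mcm6 (0.196) and Melk were not. The mitotic genes that had fallen by 9 months did not pass between 9 and 24 months. Top2a came nearest, at -0.58 ± 0.23 (adjusted p = 0.0608).

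The linear trend over the 20 libraries of 2 to 24 months called 7 of the 32 members lower and 2 higher, where 7.93% of all genes were lower and 7.8% higher. The slopes per month on the log2 scale were -0.0791 for Top2a, -0.0865 for Pbk, -0.0469 for Cenpf and -0.0508 for Mki67 (edgeR adjusted p of 0.000118, 0.000325, 0.000156 and 0.00257). They were -0.0223 for Kif11 and -0.0280 for Cdca8 (0.0163 and 0.0182). Bub1, which passed the filter through its 2 month level, is also among the 7. Its filtered slope of -0.0599 (edgeR adjusted p = 0.0262) is given as a description. In the fit with no filter on low counts the slope of Bub1 was -0.0591 (edgeR adjusted p = 0.0424). Melk rose by 0.0326 per month (adjusted p = 0.012) and Pcna by 0.00848 (0.0333). Kif11 and Bub1 lost the trend call without 2 months replicate 4 (adjusted p of 0.053 and 0.0931), Bub1 also without 2 months replicate 5 or 24 months replicate 5 (0.076 and 0.0701), and Cdca8 without 2 months replicate 3 (0.0516). Pcna lost it without 24 months replicate 1, 3 or 4 (0.111, 0.0503 and 0.058). A straight line is a coarse summary here, since for Top2a, Pbk, Cenpf and Mki67 the larger share of the fall from 2 to 24 months lay before 9 months. With the liver sum as covariate 4 members were called, all lower. Mki67 (adjusted p = 0.0693), Kif11 (0.174) and Bub1 (0.113) lost the trend call in that fit, as did Melk (0.239) and Pcna (0.453). Of all 18655 genes that fit called 409 lower and 520 higher, against 1480 and 1456 without the covariate.

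At 30 months the result depends on the 4 libraries with raised GC-rich transcripts. Fitted over all 25 libraries, 20 of the 31 members tested were lower than at 2 months and 0 higher, where 28.9% of the 18746 genes tested were lower and 26.2% higher. Against 24 months 16 were lower and 0 higher, against 28.2% and 23.7% of all genes. The median log2 fold changes were -0.74 and -0.51. Among the members lower than at 2 months, Pbk passed the filter over all 25 libraries (a mean of 6.12 counts) through its 2 month level. It had 7 to 17 counts per library at 2 months and 0 to 7 at 30 months, so its call with 2 months is given as a description. At an unadjusted p under 0.05 in edgeR 2 (Mcm3 and Pcna) and 0 members were higher, and DESeq2 and limma-voom called 0 higher in both. When replicates 2 to 5 of 30 months were left out, so that replicate 1 alone stood for that age and was assumed to vary like the others, 5 members were called lower than at 2 months (Cenpf, Kif11, Smc2, Smc4 and Top2a) and 0 of 32 differed from 24 months (2 at an unadjusted p under 0.05 in edgeR, both lower). In that fit 2.7% of all 18707 genes were lower and 3.38% higher than at 2 months, and 0.647% and 0.871% than at 24 months.

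Smc2 shows the split within the age. It stood at 12 CPM in 30 months replicate 1 and at 1.63 to 3.48 CPM in replicates 2 to 5. Smc4 stood at 7.89 against 1.25 to 2.65 CPM, and Kif11 at 1.53 against 0.183 to 0.655 CPM. Pcna, in contrast, stood at 16.7 against 15.9 to 17.3 CPM, and Mcm7 at 10.1 against 8.65 to 11 CPM. Replicate 1 lay within the range of the 24 month libraries for 18 of the 34 members, below it for 13 and above it for 3. The shares over all genes were not counted, so these counts are no result about the members. Across the 31 members, the log2 ratio of replicates 2 to 5 to the mean of 24 months ran with the GC content of the transcript (Pearson's r = 0.68, a description over genes that share the same libraries), and that of replicate 1 did not (r = 0.07). The 12 members under 45% GC had a median ratio of -1.50 in replicates 2 to 5 and -0.10 in replicate 1, and the other 19 had -0.25 and -0.11. With a correction for GC content 10 members were called between 30 and 24 months, 9 lower and 1, Pcna, higher, where 18.4% of all genes were lower and 21.2% higher. The part of base composition in what remained was not tested.

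**Figure D4:**
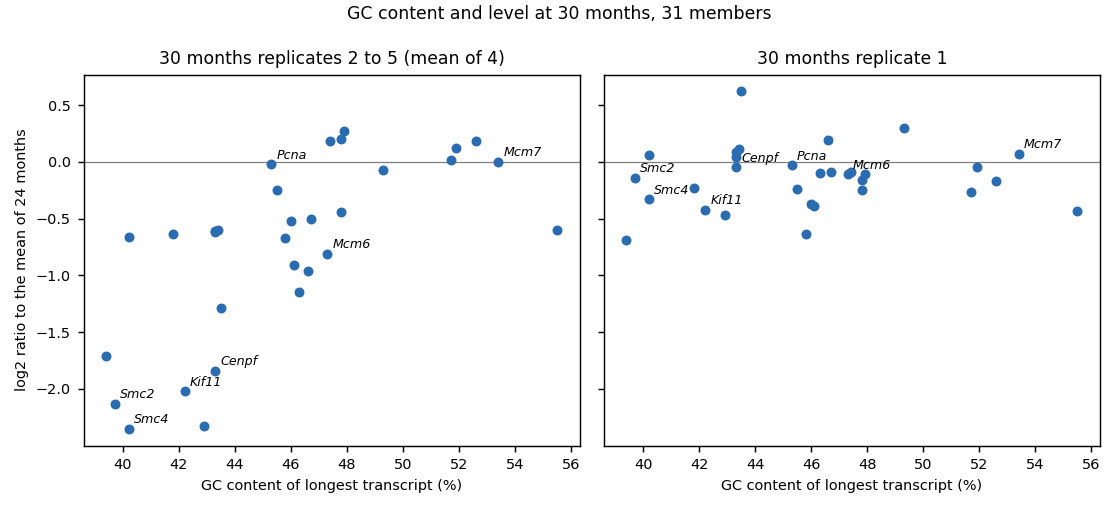
Log2 ratio of the level at 30 months to the mean of 24 months, after adding 0.05 CPM (y axes), against the GC content in percent of the longest transcript (x axes), 1 point per member tested (31), for replicates 2 to 5 on the left and replicate 1 on the right. On the left Smc2 and Smc4 lie at -2.13 and -2.35 and Pcna at -0.02, and on the right Smc2 and Smc4 lie at -0.14 and -0.33.

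Other genes of the cycle were read from 4 lists. Their counts stand beside shares over all genes tested of 6.41% lower and 7.35% higher at 9 months, 6.52% and 5.35% at 15 months and 11.1% and 10.1% at 24 months, all with 2 months, and several lie near these shares. Of 48 other genes of mitosis, 44 were tested, with 7 lower and 2 higher at 9 months, 5 and 2 at 15 months and 6 and 2 at 24 months, and medians of -0.21, -0.21 and -0.16. Their summed level went the other way from that of the mitosis members, from 266 to 276 CPM at 2 months to 283 to 304, 289 to 309 and 292 to 321 CPM at the next 3 ages. Hjurp and Anln have the highest levels in that sum, not scaled to length, and both rose, as given below. The sum without these genes was not made, so its rise does not describe the list as a whole. Kif2c, a motor that takes spindle microtubules apart, fell from 0.5 ± 0.204 CPM (SD, n = 5) at 2 months to 0.152 ± 0.0855 CPM at 24 months (-1.61, edgeR adjusted p = 0.00217). At such a low level counting error is large, and whether Kif2c passed the filter through its 2 month level is not given here. Ncapd2, a condensin subunit, fell from 31 ± 1.48 to 25.3 ± 0.67 CPM (-0.29, 5.72e-05). The other pair with the smallest trend p rose. Anln, which encodes anillin of the cleavage furrow and is also made by oligodendrocytes, rose from 56.6 ± 3.97 to 87.4 ± 13.6 CPM (0.63, 0.000301), and Hjurp, a chaperone of centromeric histones, from 66.7 ± 3.34 to 79.3 ± 1.67 CPM (0.25, 3.34e-06).

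Of 30 other replication genes, all tested, 3 were lower and 1 higher at 9 months, 2 and 0 at 15 months and 1 and 0 at 24 months. Uhrf1, which carries DNA methylation through replication, fell from 1.34 ± 0.279 CPM at 2 months to 0.727 ± 0.0873 CPM at 9 months and 0.624 ± 0.211 CPM at 24 months (-0.86 and -1.07, edgeR adjusted p of 0.0098 and 0.000971). Cdc6, an origin licensing factor, fell with age in the trend (-0.0414 per month, adjusted p = 0.0404). Rfc3 and Pola2, a clamp loader and a primase subunit, had the next smallest p for the trend and did not pass (0.0772 and 0.0995).

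Of 20 G1 cyclins, kinases and E2F factors, 3 were lower and 2 higher at 9 months, 5 and 2 at 15 months and 3 and 1 at 24 months. Ccnd2, a D cyclin of neural progenitors, fell from 86.0 ± 13.2 CPM at 2 months to 76.9 ± 6.16, 62.3 ± 3.0 and 51.5 ± 3.53 CPM at 9, 15 and 24 months, and its trend of -0.0349 per month had an adjusted p of 1.23e-06 in edgeR. It was not called between 2 and 9 months (-0.16, adjusted p = 0.248). E2f3 fell by 0.17 on the log2 scale at 24 months (-0.17, 0.00289), Ccnd1 rose (0.23, 0.000351) and Ccne1 fell (-0.18, 0.0367). Of 10 cell cycle inhibitors, 9 were tested, with 1 higher at 9 months and none called at 15 or 24 months with 2 months. Cdkn2d, Cdkn1b, Btg2 and Cdkn1c had the smallest trend p among them, and none passed (0.0941 to 0.518).

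Markers of cell types that can divide or bring in dividing cells moved as follows. The shares of all genes tested called lower were 6.41%, 6.52% and 11.1% at 9, 15 and 24 months with 2 months. Those called higher were 7.35%, 5.35% and 10.1%. Of 16 markers of neuroblasts and immature neurons 4 were lower at 9 months, 7 at 15 and 7 at 24 months, with 0, 0 and 1 higher. Dcx, a microtubule protein of migrating neuroblasts, fell from 64.0 ± 4.66 CPM at 2 months to 44.8 ± 2.64 CPM at 9 months (-0.52, edgeR adjusted p = 2.13e-07) and was at 47.1 ± 3.06 CPM at 24 months. Sox4 fell from 9.11 ± 0.53 to 6.92 ± 0.78 CPM at 9 months (-0.40, 0.000794), and Sox11 was called at 24 months (-0.45, 3.22e-05) and not at 9 months (-0.05, 0.706). The summed level of the list was 622 to 675 CPM at 2 months and 574 to 602, 541 to 571 and 549 to 577 CPM at the next 3 ages. Of 12 markers of neural stem and transit cells, 11 were tested, with 0 lower and 1 higher at 9 months and 2 lower and 1 higher at 24 months. The sum of all 12 was 167 to 177 CPM at 2 months and 158 to 177, 166 to 184 and 176 to 189 CPM at the next 3 ages. Nes did not pass from 2 to 24 months, and Egfr was lower at 24 months (-0.17, 0.0323). Of 15 markers of oligodendrocyte precursors 8 were lower at 9 months, 7 at 15 and 6 at 24 months, with 0, 0 and 4 higher. At 9 months 9 of the 15 fold changes were below 0 and 6 above. The sum of the 15 overlapped between all these ages, at 1170 to 1340 CPM at 2 months and 1160 to 1310, 1210 to 1260 and 1170 to 1290 CPM after. Lower at 9 months were Pdgfra (-0.18, 0.00287) and Cspg4 (-0.16, 0.0458) among others. At 24 months Pdgfra was lower (-0.11, 0.0415) and Olig1 higher (0.27, 5.26e-06). What part each cell type has in the members' levels was not tested.

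Signs of other tissue were read beside the fall at 9 months, and their part in it was not tested. The meninges and fibroblast sum was 237 to 356 CPM at 2 months and 212 to 247, 214 to 233 and 202 to 233 CPM at the next 3 ages. Of its 10 genes 1, 2 and 3 were called lower and 0 higher, where 6.41%, 6.52% and 11.1% of all genes were lower. Apart from 2 months replicate 4, the marrow sum was 2.61 to 5.97 CPM at 2 months and 1.97 to 5.63 CPM at 9 months, and its defining genes Mpo and Elane had means of 0.115 and 0.0311 CPM at 9 months. The liver sum was 1.89 to 199 CPM at 2 months and 2.5 to 39.4 CPM at 9 months. The lymphocyte sum was 10.7 to 11.7 CPM at 2 months, 9.43 to 11.2 CPM at 9 months and 10.4 to 27.0 CPM at 24 months. Choroid plexus genes summed to 362 CPM in 9 months replicate 1 and to 869 to 1410 CPM in the other 24 libraries. Without 9 months replicate 1 the members called at 9 months were 11, all lower. That fit called 916 lower and 1179 higher of all 18639 genes.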

How the data were processed

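Total RNA of brain hemispheres was sequenced after TruSeq library preparation, per the labels' protocols. Per the submitters' processing notes, bases were called with CASAVA 1.7, reads aligned with STAR 2.4.1d to GRCm38 and counted with featureCounts 1.4.6-p4. The annotation release and counting options are not given in the sources used here. The deposited table holds raw counts per Ensembl gene. The authors' RPKM values were not used, because their ratio to the counts does not run with the library totals. Of 47729 genes, 47310 matched GENCODE M21, which gave symbols, lengths and GC content.

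Tests on the deposited counts used edgeR 4.0.16 under R 4.3.3, with TMM scaling and the robust quasi-likelihood fit. Genes with a mean of 5 counts per library or more were kept, whatever the age. Comparisons of 2 to 24 months used 20 libraries, those with 30 months all 25. Tests were two-sided, p values took the Benjamini-Hochberg adjustment across every gene tested, and a call was made at 0.05. A positive log2 fold change means a higher level at the older age. The test was checked on simulated counts with known changes. Alternatives were other scalings, filters and tools (DESeq2 1.42.0, limma-voom 3.58.1), other sets of libraries, liver and marrow covariates, a GC correction and leaving out each library. The marrow covariate was chosen after seeing the data.

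The members and lists were chosen with earlier results of these data known. Values in every library are given for the 12 members with the smallest trend p among the 19 called in 9, 15 or 24 with 2 months or in the trend, and other pathway genes named are the 4 of each list with the smallest trend p. Fold changes of single genes outside this rule were added after their values were seen. Replicate numbers follow the sample order and pair nothing. With 17800113 to 31261121 counts per library, the scarcest member, Ccnb1, had a mean of 2.2 counts per library, and for such members counting error is large.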

Additional observations from a re-analysis of the deposited data

Results flagged for a closer look

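Within an age, a library was looked at again when its gap to the nearest of the 5 exceeded 0.71 of the whole range. Among 70 such groups (12 members and 2 sums at 5 ages) 5 values passed this limit, all in 24 months replicate 1 or 30 months replicate 1. Chance gives about 1 in 20 for a single group, but values of genes from the same library are not independent. Top2a in 24 months replicate 1 stood at 1.94 CPM, where the other 4 libraries held 0.688 to 0.896. Mki67 in the same library stood at 2.66 CPM against 1.29 to 1.57. In that library Cenpf (0.968 CPM) lay among the other libraries of 24 months and Kif11 (1.76 CPM) below them. Cenpf in 30 months replicate 1 stood at 0.895 CPM against 0.137 to 0.331, Pbk at 0.298 against 0 to 0.0771, and Smc2 at 12 against 1.63 to 3.48. The other 4 libraries of these last 3 values are those with raised GC-rich transcripts, and the part of that in the gap was not tested.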

How the results depend on the processing

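The number of members called was recomputed under each alternative. Leaving out each library in turn gave 10 to 13 members at 9 with 2 months, 6 to 10 at 15 with 2, 8 to 11 at 24 with 2, 5 to 6 at 24 with 9, 7 to 10 in the trend, 18 to 21 at 30 with 2 and 14 to 20 at 30 with 24 months. With all 25 libraries in the fit 2, 4 and 6 members were called at 9, 15 and 24 with 2 months. That fit called 201 genes lower and 217 higher of all genes at 9 months, against 1195 and 1372. DESeq2 called 5 and 7 at 15 and 24 with 2 months, but gave no adjusted p for 13 and 3 members. The marrow covariate left 6 at 15 with 2 months. The liver covariate left 6 at 24 with 2, 2 at 24 with 9 and 4 in the trend. Calls over all genes fell in these fits too. The marrow covariate called 926 lower and 774 higher at 15 with 2, against 1216 and 998. With the liver covariate 1081 and 961 were called at 24 with 2 (against 2072 and 1881). At 24 with 9 it called 1591 and 1330 (2743 and 2662), and in the trend 409 and 520 (1480 and 1456). For these losses the cause was not tested. Without 30 months replicates 2 to 5 there were 5 calls at 30 with 2 and 0 at 30 with 24 months, and the GC correction left 10 at 30 with 24, 9 lower and 1 higher. Other size factors (RLE), total counts alone and filtering by age each called 2 members higher at 30 with 2 months. Directions turned only in comparisons with 30 months. Without those 4 libraries the log2 fold changes were 0.079 and 0.09 for Prc1 and 0.057 and 0.039 for Rrm1, with 2 and 24 months. With the GC correction Rrm1 stood at 0.04 with 2 months, Mcm4 at 0.112 and 0.048 with 2 and 24 months, Nusap1 at 0.034 and Pcna at 0.29 with 24 months. Calls that stood in every setting that gave a value (Pbk at all ages, and Cenpf and Rrm2 at 15 months, had none in some) were Mki67 and Top2a at 9 months, Cenpf, Pbk, Rrm2 and Top2a at 15 months, Cenpf, Mki67, Pbk and Top2a at 24 months, Mcm3 and Pcna at 24 with 9 months, Cenpf, Pbk and Top2a in the trend, Cenpf, Kif11, Smc2, Smc4 and Top2a at 30 with 2 months and none at 30 with 24 months. Bub1, which some settings removed, is left aside here. No paired analysis was possible because replicate numbers follow the sample order and pair no animals.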
